A study of Mus musculus with 2 samples.

Results

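Oxidative phosphorylation genes were described here in single cells of mouse distal colon adenomas, in 1 droplet library annotated CIN_high and 1 annotated CIN_low. The genes were chosen by name: every row of the expression matrix beginning with Ndufa, Ndufb, Ndufc, Ndufs, Ndufv, Uqcr, Cox4i, Cox5, Cox6, Cox7, Cox8, Atp5, Sdha to Sdhd or mt-, without the assembly factors Ndufaf and Sdhaf. This gave 97 of 21041 genes, 84 encoded in the nucleus and 13 in the mitochondrial genome. By complex, the nuclear genes comprised 37 of complex I, 4 of complex II, 8 of complex III, 18 of complex IV and 17 of complex V, and the mt- genes 7, 0, 1, 3 and 2 in the same order. Ndufa4 and its paralog Ndufa4l2, named for complex I, were counted with complex IV, where the NDUFA4 protein is known to sit.

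Oxidative phosphorylation takes place in the inner mitochondrial membrane. Complexes I and II pass electrons from NADH and succinate to complex III and, through cytochrome c, to complex IV, which reduces oxygen; complexes I, III and IV pump protons, and complex V, the ATP synthase, uses the gradient to make ATP. All complexes except II are built from nuclear and mitochondrial gene products. Several complex IV subunits exist as paralogs used in different tissues, and in the intestine absorptive cells are known to be rich in mitochondria.

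Every mouse was Apcmin with an LSL-mTERT allele and 25 weeks old. Apcmin mice carry a truncating allele of the tumour suppressor Apc and develop intestinal adenomas. The labels name 1 sample G4+T and 1 G0+T, and the authors' cell table names the class CIN_high or CIN_low, where CIN stands for chromosomal instability. All 6189 cells with barcode suffix 1 were CIN_high and all 7908 cells with suffix 2 were CIN_low, so class and library cannot be told apart. Every cell name in both begins with a prefix that matches the G0+T title alone, and the titles number G0+T as 1 and G4+T as 2, while suffix 1 is CIN_high and suffix 2 CIN_low. Whether suffixes follow the titles was not stated in the sources used here, so no cell was assigned to G4+T or G0+T and the sample behind each class is not known. The labels do not say how many adenomas or animals went into a library and name no Cre driver for the LSL allele. Because there was 1 library per class, no test across samples was possible, and "higher" or "lower" below means a ratio of at least 1.5-fold.

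Nuclear genes of the pathway are known targets of transcription factors that bind close to the start of transcription, among them NRF1, ETS family factors such as GABP, and YY1. Windows of 250 bases upstream of the start were found in RefSeq's table (build GRCm38.p6) for 67 of the 84 nuclear members. Both strands were searched for the NRF1 half-site TGCGCA, the ETS core CCGGAAG, the YY1 core AAGATGG, the hypoxia response core ACGTG and the CCAAT box. The NRF1 half-site lay in the windows of 13 of 67 members (19.4%), against 7.36% of 27025 genes, and the ETS core in 12 (17.9%), against 7.83%. The YY1 core lay in 1 member (1.49%), against 5.18% of genes, the hypoxia core in 13 (19.4%), against 18.5%, and the CCAAT box in 29 (43.3%), against 37.5%. These are matches of letters and were not tested as sites. Windows of 4 complex IV members on which the comparisons below turn are shown from 5′ to 3′ on the strand of the gene, with capitals marking matches to any of the 5 motifs. Ndufa4 and Cox7a1 are shown as examples of complex IV members higher in epithelium than in each type compared. Cox6a1 is shown as a member that was higher in enterocytes of both libraries, and Cox6b2 as the member past 1.5-fold between the libraries in epithelium. They lie at chr6:11907451-11907700 on the minus strand (Ndufa4), chr7:30183921-30184170 on the plus strand (Cox7a1), chr5:115348959-115349208 on the minus strand (Cox6a1) and chr7:4753095-4753344 on the minus strand (Cox6b2).
Ndufa4: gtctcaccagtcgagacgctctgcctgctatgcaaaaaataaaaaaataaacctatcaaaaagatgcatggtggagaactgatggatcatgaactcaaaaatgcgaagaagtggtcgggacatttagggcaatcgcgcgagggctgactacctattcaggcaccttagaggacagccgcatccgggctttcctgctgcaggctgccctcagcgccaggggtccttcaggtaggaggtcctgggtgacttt
Cox7a1: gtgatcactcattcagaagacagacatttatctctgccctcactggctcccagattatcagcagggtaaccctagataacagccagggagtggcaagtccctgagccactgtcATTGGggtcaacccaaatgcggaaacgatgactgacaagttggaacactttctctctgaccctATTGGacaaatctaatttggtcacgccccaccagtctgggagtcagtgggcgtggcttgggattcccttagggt
Cox6a1: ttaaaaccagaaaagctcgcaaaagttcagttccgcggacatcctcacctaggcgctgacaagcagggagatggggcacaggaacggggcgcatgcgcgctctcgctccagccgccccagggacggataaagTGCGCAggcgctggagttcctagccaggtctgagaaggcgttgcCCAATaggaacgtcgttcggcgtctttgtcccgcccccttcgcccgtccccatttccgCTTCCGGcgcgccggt
Cox6b2: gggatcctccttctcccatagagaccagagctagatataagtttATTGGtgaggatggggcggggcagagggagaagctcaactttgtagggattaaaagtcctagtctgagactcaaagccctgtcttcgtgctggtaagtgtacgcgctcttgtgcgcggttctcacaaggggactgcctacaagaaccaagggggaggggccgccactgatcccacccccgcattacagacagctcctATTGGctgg
The Cox6a1 window holds the NRF1 half-site at -118 to -113 and a CCAAT box at -74 to -70. It also holds the ETS core at -16 to -10, on the other strand. Positions are counted from the start of transcription in RefSeq's table. By the gene coordinates given below, Ndufa4 and Cox7a1 start inside their windows, so their starts differ between the sources. Cox7a1 holds only CCAAT boxes, on the other strand at -137 to -133 and -74 to -70, and so does Cox6b2, at -206 to -202 and -9 to -5. The Ndufa4 window holds none of the 5 motifs.

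The CIN_high library held 51868113 UMIs, with a median of 6448 per cell, and the CIN_low library 74733715, with a median of 7154; a UMI is a molecular identifier that counts 1 captured RNA molecule. The mt- members took 7.64% of all UMIs and the nuclear members 1.89%. The authors' cell types held 1316 and 1725 epithelial cells, 966 and 21 fibroblasts, 602 and 247 endothelial cells, 83 and 58 pericytes, 2930 and 5348 myeloid cells, 234 and 414 T and NK cells and 40 and 93 cells annotated as B cells, in the CIN_high and the CIN_low library. Summed levels of epithelial markers were 95.2 and 89.0 UMIs per 10000 in epithelium and at most 3.99 in any other type. Fibroblast markers summed to 131 and 146 in fibroblasts and to 0.60 and 0.0336 in epithelium. In all, 11 barcodes occurred under both suffixes. Scrublet called 142 and 249 doublets. No cell had 25% or more of its UMIs from mt- genes. Exons of 28 nuclear members overlap a gene on the opposite strand and those of 5 a gene on the same strand in GENCODE M21, and many nuclear members have processed pseudogenes, so their reads may be split.

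Epithelial cells gave the largest shares of their RNA to the pathway among the cell types. The median nuclear share was 2.12% in CIN_high epithelium and 2.13% in CIN_low epithelium, with quartiles of 1.47% to 2.74% and 1.5% to 2.77%. In the same order of libraries, the nuclear median was 1.70% and 1.38% among pericytes, 1.48% and 1.48% for T and NK cells, 1.35% and 1.17% in myeloid cells, 1.22% and 1.14% in fibroblasts, 1.18% and 1.03% in cells annotated B, and 0.993% and 0.835% in endothelial cells. The mt- share was 12.0% and 10.3% in epithelium, 9.81% and 6.40% in cells annotated B, 6.42% and 6.96% in endothelial cells, 6.44% and 5.68% among pericytes, 5.84% and 5.68% for T and NK cells, 4.93% and 3.31% in myeloid cells and 4.66% and 6.46% in fibroblasts. The 2 gene groups did not order the types alike: endothelial cells were last of these types for nuclear members in both libraries, whereas for mt- members only epithelium was above them in the CIN_low library. Epithelium had the deepest cells, at a median of 14032.5 and 15364 UMIs, against 3715 and 4456 in endothelium. Depth moved with the nuclear share of non-mitochondrial UMIs within epithelium, as given below. The Spearman correlation was 0.55 and 0.57 in T and NK cells, but 0.09 in CIN_high fibroblasts. Among pericytes it was 0.02 and 0.45.

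**Figure D1:**
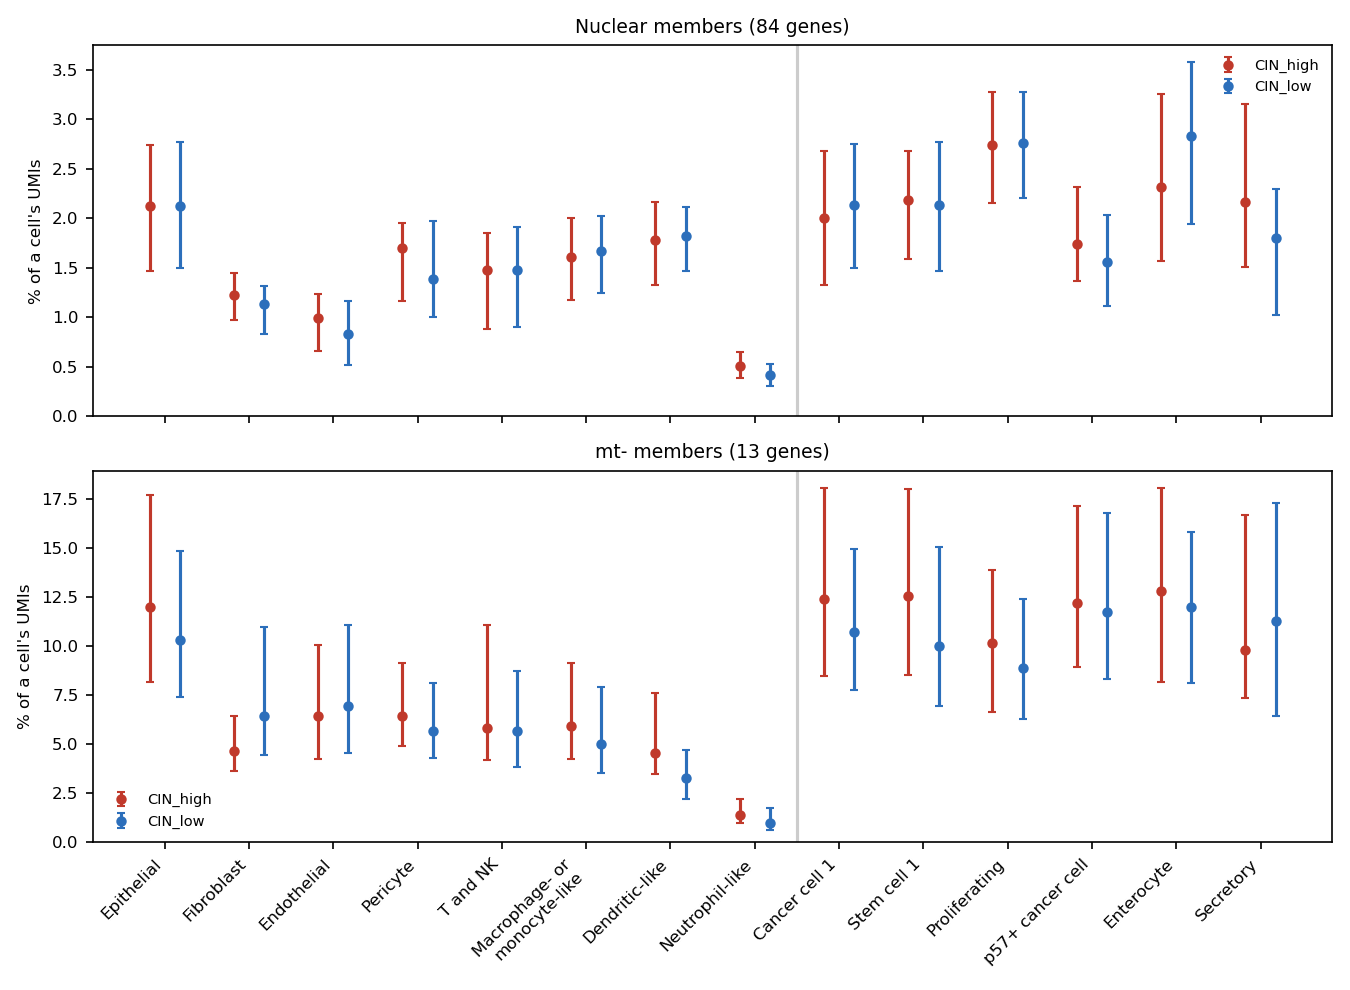
Share of each cell's UMIs from the nuclear members (upper panel) and from the mt- members (lower panel), in percent, in the CIN_high library (red) and the CIN_low library (blue). Points are medians over cells and bars run between the quartiles; epithelium stands at 2.12% and 2.13% for nuclear members, neutrophil-like cells at 0.513% and 0.418%, and the subtypes of the epithelium follow the grey line.

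Myeloid cells fell into groups with low and high shares. Clusters of them were named from marker genes, without using the members, mt- or ribosomal protein genes. Of the clusters named macrophage- or monocyte-like, 1 of 49 and 55 cells was led by cell cycle genes, and 1 neutrophil-like cluster of 94 and 583 cells by inflammatory genes. Neutrophil-like clusters held 607 CIN_high and 1870 CIN_low cells, or 20.7% and 35.0% of the myeloid cells. Their nuclear median was 0.513% and 0.418% and their mt- median 1.40% and 0.993%. Macrophage- or monocyte-like clusters (1644 and 2196 cells) had nuclear medians of 1.61% and 1.67% and mt- medians of 5.94% and 5.02%, and the dendritic-like cluster (205 and 295 cells) 1.78% and 1.82%, with 4.54% and 3.25% for mt-. Within each library the upper quartile of neutrophil-like cells lay below the lower quartiles of the macrophage- or monocyte-like and dendritic-like cells for both gene groups. A further 369 and 933 myeloid cells stayed unnamed, and 105 and 54 lay in clusters led by genes of fibroblasts, epithelium or T cells.

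The epithelial excess varied with the complex and the type compared. Over the 9 comparisons, median log2 ratios ran from 0.36 to 1.20 for nuclear members of complex I, 0.77 to 1.47 for complex III, 0.36 to 1.56 for complex IV and 0.53 to 1.34 for complex V. For complex II they ran from -0.065, against CIN_high pericytes, where 1 of 4 members was above 1, to 1.26. Against endothelial cells of the CIN_high library the median log2 ratios were 0.95, 0.80, 1.30, 1.45 and 1.23 for nuclear members of complexes I to V. Against endothelial cells, 69 of 80 measured nuclear members were higher in CIN_high epithelium (42% of all measured genes) and 75 of 80 in CIN_low epithelium (41%), with median log2 ratios of 1.14 and 1.34 where all genes had 0.37 and 0.32. Against fibroblasts of the CIN_high library, 52 of 80 were higher (35% of all genes; median 0.76, all genes 0.17). Against T and NK cells, 43 and 46 of 80 were higher (38.3% and 43.4% of all genes; medians 0.65 and 0.68). Against pericytes, 30 and 41 of 82 were higher (30.8% and 34.6%; medians 0.40 and 0.59). Against myeloid cells 48 and 64 of 80 were higher, above the 55.3% and 65.2% of all genes, while the medians of 0.71 and 0.91 lay below the 0.73 and 1.10 of all genes. A member counted as measured where at least 2% of the cells of 1 side had a UMI, so members seen in 1 type alone had to differ.

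All 13 mt- members were higher in epithelium than in myeloid cells of both libraries (55.3% and 65.2% of all genes, medians 1.05 and 1.40). All 13 were also higher than in CIN_high fibroblasts (35% of all genes, median 1.18). Against endothelial cells 8 of 13 and 3 of 13 were higher (42% and 41% of all genes, medians 0.69 and 0.44). The CIN_low count there lay below the share of all genes. Against pericytes 9 and 7 were higher (30.8% and 34.6%), and against T and NK cells 10 and 9 (38.3% and 43.4%). Each library had 6 annotated types of 50 cells or more, and among them epithelium had the highest level of 61 of 84 nuclear members in the CIN_high library and of 66 in the CIN_low library. The share of all genes highest in epithelium was not counted, so such counts have no background here. Epithelium also had the highest level of 12 and 10 of the 13 mt- members. An exception in both libraries was mt-Nd6, the one mt- member encoded on the light strand, whose level was 2.27 and 2.33 UMIs per 10000 in epithelium, 2.59 and 2.1 in T and NK cells and 2.44 and 3.88 in endothelial cells. Pericytes were highest for 13 and 7 nuclear members, among them Cox4i2 and Ndufa4l2 in both.

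Ndufa4, a subunit of complex IV (chromosome 6, 11900292 to 11907497, minus strand, mm10), and Cox7a1, a complex IV subunit known from heart and skeletal muscle (chromosome 7, 30184144 to 30186078, plus strand), were each higher in epithelium in all 9 comparisons with other types. The median log2 ratio of Ndufa4 over these was 2.43. Other members were higher in all 9 as well, among them Uqcr10, Uqcr11 and Atp5g1, and Cox5b of complex IV. Their lowest log2 ratios were 1.08, 1.07, 0.97 and 0.60. Cox7a1 was at 0.143 and 0.130 UMIs per 10000 in epithelium, on 305 and 462 UMIs, and had at most 6 UMIs in any endothelial, fibroblast, pericyte, T and NK or B group and 45 and 92 in myeloid cells. Outside the comparison with pericytes it passed the limit for being measured through epithelium alone. With 0 UMIs in CIN_low T and NK cells no median is given for it. Against CIN_high pericytes its ratio was 1.90, with an interval from summed UMIs of 0.564 to 3.41. Ndufa4 had 6.81 UMIs per 10000 in epithelium of the CIN_high library, against 7.20 for CIN_low. It was at 3.05 and 2.42 in cells annotated B, 2.90 and 0.851 in pericytes, 2.53 and 1.66 in fibroblasts, 1.77 and 1.29 in endothelial cells, 1.56 and 1.34 in T and NK cells and 1.20 and 0.880 in myeloid cells. No other type reached the epithelial level in either library. Enterocytes, an epithelial subtype described below, were lower, at 1.80 and 2.31. That lay below cells annotated B in both libraries, and below pericytes and fibroblasts in the CIN_high library. Cox5a, a core-associated subunit of complex IV, was at a median log2 ratio of 1.47, and Ndufab1, the mitochondrial acyl carrier protein bound to complex I, at 1.38. The least epithelial members were Ndufb10 (0.07), Cox7a2l, a factor of respiratory supercomplex assembly (0.08), Ndufv3 (0.12) and Ndufb11 (0.15).

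The complex IV paralogs differed in the cell type that held most of their RNA. Cox4i1, the widely used form of subunit 4, was detected in every type and stood at 9.72 and 8.92 UMIs per 10000 in epithelium, 7.70 and 5.70 in pericytes and 4.28 and 3.50 in endothelial cells. Cox4i2, a form known to be induced by low oxygen (chromosome 2, 152754173 to 152765037), was at 1.48 and 2.72 in pericytes and at most 0.114 in any other type. No UMI of it was found in 234 and 414 T and NK cells, which allows 1.28% and 0.725% of cells with a UMI. Ndufa4l2, the hypoxia-inducible paralog of Ndufa4 (chromosome 10, 127514967 to 127517154), was at 2.41 and 5.30 in pericytes and at most 0.0478 in any other type. Pericytes, which made up 1.34% and 0.733% of the cells, held 148 of 186 and 337 of 354 UMIs of Ndufa4l2 (79.6% and 95.2%). They held 70 of 103 and 160 of 237 UMIs of Cox4i2 (68.0% and 67.5%), with 17 and 40 of the others in myeloid cells.

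Cox6a2, the heart and muscle form of subunit 6a (chromosome 7, 128205435 to 128206387), was at 2.18 and 5.41 UMIs per 10000 in cells annotated B, in 9 of 40 and 33 of 93 of them. All 9 and all 33 of these cells also had UMIs of Siglech, a receptor gene known from plasmacytoid dendritic cells, and 0 of them had UMIs of the B cell genes Cd79a or Ms4a1. Among the cells annotated B without Cox6a2, Siglech was found in 2 of 31 and 10 of 60 and Cd79a in 25 of 31 and 39 of 60. The Cox6a2 signal thus lay in cells whose markers go against their label. Elsewhere Cox6a2 was found in 8 of 2930 and 20 of 5348 myeloid cells and in 0 fibroblasts and 0 pericytes of both libraries. Cox6a1, the widely used form, was at 2.73 and 2.67 in epithelium and at 1.22 and 1.70 in cells annotated B. Cox6a2 shares 70 exonic bases with Itgad on the opposite strand, and Ndufa4l2 shares 32 with Shmt2.

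**Figure D2:**
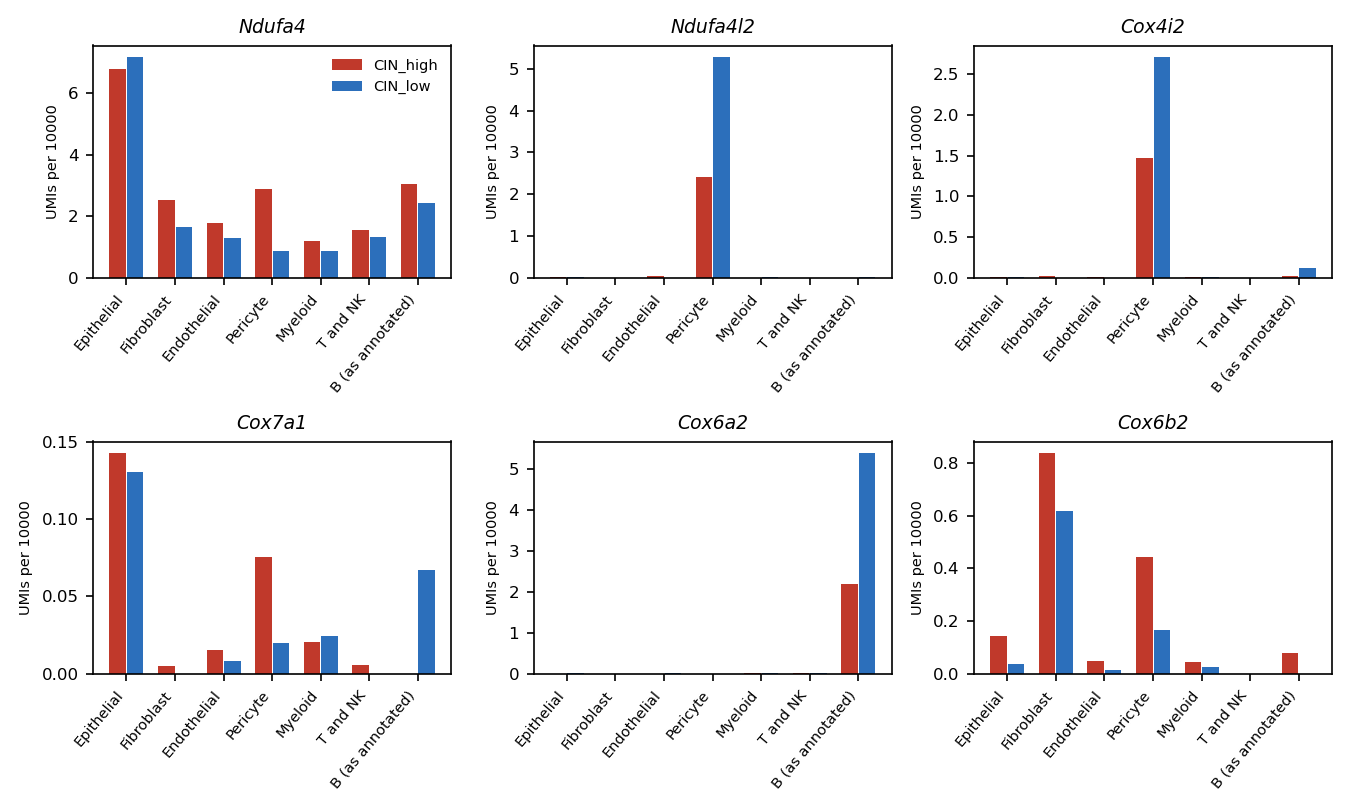
Mean level of 6 complex IV members, in UMIs per 10000 UMIs of a cell, by cell type as annotated, in CIN_high (red) and CIN_low (blue); each bar is a mean over the cells of 1 library and the vertical scales differ. Ndufa4 and Cox7a1 were highest in epithelium, at 6.81 and 7.20 and at 0.143 and 0.130, Ndufa4l2 and Cox4i2 in pericytes, Cox6a2 in cells annotated B and Cox6b2 in fibroblasts.

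Cox6b2, known from testis as the form of subunit 6b found in sperm (chromosome 7, 4751792 to 4753094), was highest in fibroblasts, at 0.841 in the CIN_high library (375 of 966 cells with a UMI) and 0.620 in the CIN_low library (9 of 21 cells). Pericytes had 0.442 and 0.164, and T and NK cells 0 UMIs. Cox6b1, the widely used form, was at 1.58 and 1.99 in fibroblasts and 4.10 and 3.97 in epithelium. Cox8b, a muscle form of subunit 8, had 34 UMIs in all cells together, and Cox8a was at 7.5 and 7.57 in epithelium. Cox8c was not among the rows. Of the 3 genes for the c subunit of the ATP synthase rotor, which encode the same mature protein, Atp5g1 was at 4.36 and 4.03 in epithelium, against 1.22 and 1.20 in endothelial cells, whereas Atp5g2 was at 3.07 and 3.24 in epithelium and 3.31 and 2.59 in T and NK cells, and Atp5g3 at 3.12 and 3.41 in epithelium and 0.953 and 0.958 in endothelial cells. Cox7a1 stood at 0.143 and 0.130 in epithelium and at most 0.0754 in any other type, and Cox7a2, its widely used paralog, at 4.05 and 4.21 in epithelium.

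Within the epithelium, proliferating cells had the highest nuclear share of the subtypes in the CIN_high library, at a median of 2.74%, and 2.76% in the CIN_low library, where enterocytes were above them. Nuclear medians were 2.32% and 2.83% in enterocytes, 2.19% and 2.13% in Stem_cell_1, 2.16% and 1.80% in secretory cells, 2.0% and 2.13% in Cancer_cell_1, 1.74% and 1.56% in p57+ cancer cells and 1.61% and 1.86% in complement-positive stem cells. For mt- members, proliferating cells had the lowest CIN_low value among these 7, at 8.89%, against 10.2% in the CIN_high library. The mt- median was 12.8% and 12.0% in enterocytes, 12.5% and 10.0% in Stem_cell_1, 12.4% and 10.7% in Cancer_cell_1, 12.2% and 11.8% in p57+ cancer cells, 11.2% and 9.28% in complement-positive stem cells and 9.82% and 11.3% in secretory cells. The subtypes are the authors' and were named from these same cells, so their differences are given as descriptions.

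Against the rest of the epithelium, nuclear members of proliferating cells had ratios above 1 for 75 of 80 genes in the CIN_high library and 76 of 81 in the CIN_low library, with median log2 ratios of 0.38 and 0.39 where all genes had -0.07 and -0.12. Past 1.5-fold were 7 and 10 members (16.5% and 15.7% of all measured genes), so both counts lay below the share of all genes. Of these members 4 passed in both libraries, and how many of all genes did so is not given here. Ndufa5, a subunit of the complex I matrix arm, was at 1.96 and 1.81 UMIs per 10000, against 1.01 and 1.12 in the other epithelial cells. Ndufab1 was at 3.74 and 3.52, against 2.1 and 2.11, Atp5g1 at 7.02 and 6.17, against 4.11 and 3.76, and Uqcr10, a small subunit of complex III, at 6.0 and 6.06, against 3.91 and 3.94. All 13 mt- members had ratios below 1 in both libraries, none past 1.5-fold.

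In enterocytes single members differed from the rest of the epithelium by more than the list as a whole. They were higher in 5 of 81 nuclear members of the CIN_high library and 26 of 81 of the CIN_low library (16.4% and 18% of all genes) and lower in 5 and 3 (50% and 47.4% of all genes), with medians of 0.20 and 0.44 where all genes had -0.58 and -0.51. The count of higher members lay below the share of all genes in the CIN_high library and above it in the CIN_low library. Counts of lower members lay below that share in both. The 5 higher in the CIN_high library were also higher in the CIN_low library. How many of all genes were higher in both is not given here. Cox7a1 was at 0.590 and 0.529 in enterocytes, against 0.103 and 0.106 in the other epithelial cells, a ratio of 5.71 and 4.99. Cox6a1 was at 5.2 and 5.32, against 2.51 and 2.51, and Ndufv3, a complex I subunit of the NADH-binding arm, at 2.21 and 2.62, against 0.899 and 0.882. Cox7b was at 4.50 and 6.65, against 2.94 and 3.35. Ndufa4l2, counted among the 5, rested on 8 and 3 UMIs. It passed the limit for being measured through enterocytes alone (5.61% and 3.06% of cells), so it could only come out higher. In the other direction Ndufa4 was at 1.80 and 2.31, against 7.25 and 7.5, which is 4.02-fold and 3.25-fold lower, and Ndufc2, a membrane-arm subunit of complex I, at 1.28 and 1.59, against 2.90 and 2.90. Cox6b2, on 2 and 2 UMIs in enterocytes, was also lower in both.

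**Figure D3:**
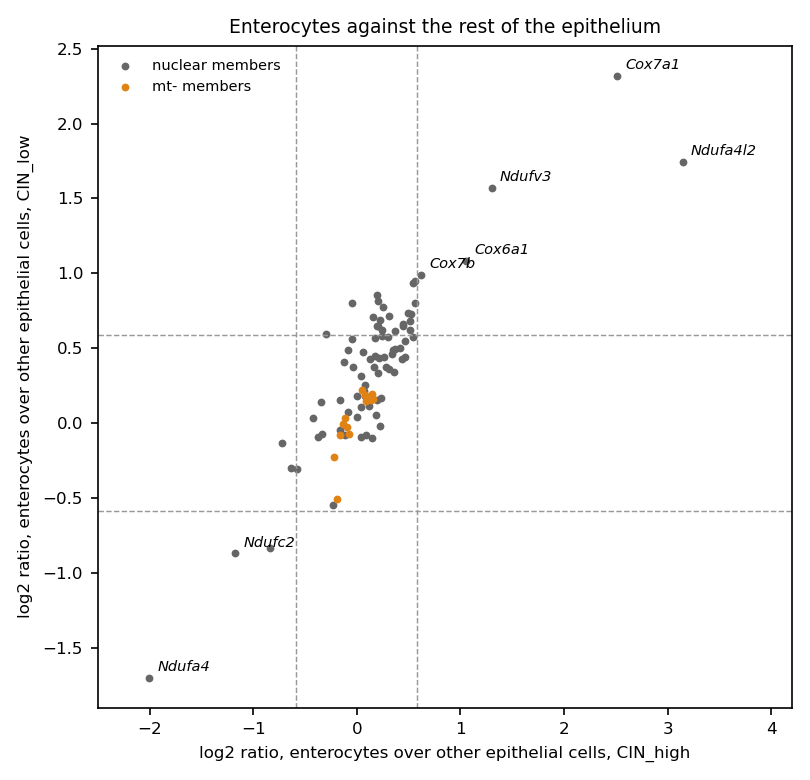
Log2 ratio of each measured member in enterocytes over the other epithelial cells, in the CIN_high library (horizontal) and the CIN_low library (vertical), with nuclear members in grey and mt- members in orange; dashed lines mark 1.5-fold. Cox7a1, Ndufv3, Cox6a1 and Cox7b lie at the upper right and Ndufa4 and Ndufc2 at the lower left in both libraries, and the mt- members lie within the dashed lines.

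Cells annotated p57+ cancer cells, named for the cell cycle inhibitor p57, had lower nuclear members. In the CIN_high library 7 of 81 and in the CIN_low library 31 of 80 were lower than in the rest of the epithelium (21.5% and 23.7% of all genes), with medians of -0.17 and -0.51. Lower in both were Atp5b, the catalytic beta subunit of the ATP synthase (3.98 and 4.0, against 6.21 and 7.27), Cox5a (2.70 and 2.32, against 4.36 and 4.88), Atp5d, Atp5k, Cox7a1 and Ndufv1, the flavoprotein that takes up NADH in complex I (0.482 and 0.453, against 0.828 and 0.818). The CIN_high count lies below the background and the CIN_low count above it. How many of all genes were lower in both libraries is not given here.

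Between the libraries, nuclear members of epithelial cells differed little. Of 80 measured, 1 was higher (4.16% of all measured genes) and 0 were lower (7.7%) in CIN_high epithelium, 32 had ratios above 1, and the median log2 ratio was -0.03, where all genes had -0.10. Cox4i2, Cox6a2, Cox8b and Ndufa4l2 were below the limit for being measured. Medians by complex were -0.02 for complex I, -0.19 for complex II, -0.03 for complex III, 0.03 for complex IV and -0.06 for complex V. Complex II, which links the pathway to the citric acid cycle, had all 4 members below 1. Sdha, its flavoprotein, was at 0.683 in CIN_high and 0.822 in CIN_low epithelium (interval of the ratio 0.782 to 0.886), Sdhb, its iron-sulfur protein, at 0.738 and 0.856 (0.819 to 0.920), Sdhc at 0.753 and 0.817 and Sdhd at 0.760 and 0.856. The other extremes were Atp5md at 2.51 and 2.91, and, in the other direction, Atp5h and Ndufb9 at ratios of 1.11 and 1.14. Intervals are exact 95% limits for the ratio of summed UMIs and cover counting error only; the ratios themselves are of means over cells and can lie outside them.

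The member past the line was Cox6b2. Its level was 0.142 UMIs per 10000 in the CIN_high epithelium, against 0.0369 for CIN_low, a ratio of 3.85 (302 and 103 UMIs; interval 3.47 to 5.50), and 12.9% and 4.75% of the cells had a UMI. Thinned to 1000 UMIs per cell, 1.29% and 0.348% had one, under the 2% limit for being measured, and the level was 0.160 and 0.0348. It was higher within Cancer_cell_1 (162 and 51 UMIs, 4.23-fold), Stem_cell_1 (56 and 7 UMIs, 6.44-fold) and proliferating cells (42 and 23 UMIs, 3.53-fold), and rested on 8 and 17 UMIs in p57+ cancer cells and 2 and 2 in enterocytes. Fibroblasts, the type with the highest level of Cox6b2, were 15.6% of CIN_high cells, against 0.266% of CIN_low cells. The 7 fibroblast markers stood in CIN_high epithelium at 0.374% to 0.585% of their fibroblast level, while Cox6b2 stood there at 16.9% of its own. In CIN_high endothelial cells these markers were at 0.183% to 0.515% and Cox6b2 at 5.60%, on 10 UMIs, and in CIN_high myeloid cells at 0.694% to 1.87% and 5.10%. The part of fibroblast RNA in the Cox6b2 difference was not tested further.

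The 13 mt- members were all measured in epithelium and none passed 1.5-fold. Of them 12 had ratios above 1, with a median log2 ratio of 0.19. The ends were mt-Nd5, a proton-pumping subunit of complex I, at 25.8 in CIN_high and 21.4 in CIN_low epithelium, mt-Nd2, also of complex I, at 53.6 and 44.4, and mt-Nd6 at 2.27 and 2.33. The complex IV core gene mt-Co1 was at 251 and 219, mt-Co2 at 193 and 169, mt-Co3 at 227 and 214, mt-Cytb, the core of complex III, at 125 and 105, and mt-Atp6 and mt-Atp8 of complex V at 261 and 231 and at 6.30 and 5.32. The remaining complex I genes mt-Nd1, mt-Nd3, mt-Nd4 and mt-Nd4l were at 54.7 and 49.1, 15.7 and 14.1, 67.6 and 57.9, and 18.8 and 16.8. mt-Atp8 and mt-Atp6, and mt-Nd4l and mt-Nd4, overlap on the same strand of the mitochondrial genome, so reads there may be counted to either. The ends of mt-Nd5 and mt-Nd6 overlap by 14 bases on opposite strands. Cells with 20% to 25% of UMIs from mt- genes numbered 217 of 1316 in CIN_high and 162 of 1725 in CIN_low epithelium, and without cells over 20% in either library the median was 0.11.

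The subtypes followed the whole epithelium in direction with exceptions. In Cancer_cell_1, 1 of 80 nuclear members was higher (5.98% of all genes) and 0 lower (8.48%), and 68 had ratios below 1, with a median of -0.12 beside 0.19 for mt- members. Stem_cell_1 had 2 of 81 higher, Cox6b2 and, on 8 and 2 UMIs, Ndufa4l2 (8.73%), and 0 lower (13.1%; medians 0.02 and 0.25). Proliferating cells had 1 of 81 higher (11.1%) and 0 lower (13.8%; medians -0.01 and 0.29). In p57+ cancer cells 3 of 81 were higher (17.4%) and 0 lower (16%), with 71 ratios above 1 and medians of 0.25 and 0.04; Ndufs6, a zinc-binding subunit of complex I, was at 1.77 and 1.11, and the others rested on 17 UMIs or fewer per library. In enterocytes 67 of 81 ratios lay below 1, with a median of -0.26, beside 0.15 for mt- members. The 2 lower ones were (22.9% of all genes) Ndufs1, the largest iron-sulfur subunit of complex I, at 0.405 and 0.828, though its interval from summed UMIs was 0.560 to 1.08, and Ndufa5 at 1.06 and 2.01 (0.517 to 0.753). The 2 higher, Cox6b2 and Ndufa4l2 (17.4%), had 8 UMIs or fewer per library. All 4 complex II genes were below 1 in Cancer_cell_1, Stem_cell_1, proliferating cells and enterocytes (medians -0.32, -0.27, -0.22 and -0.34). In p57+ cancer cells 3 of 4 were above 1 (0.49). The medians of all genes and their ratios below 1 are not given for the subtypes, so these directions have no background here. Among all genes of enterocytes, too, more were lower (22.9%) than higher (17.4%).

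**Figure D4:**
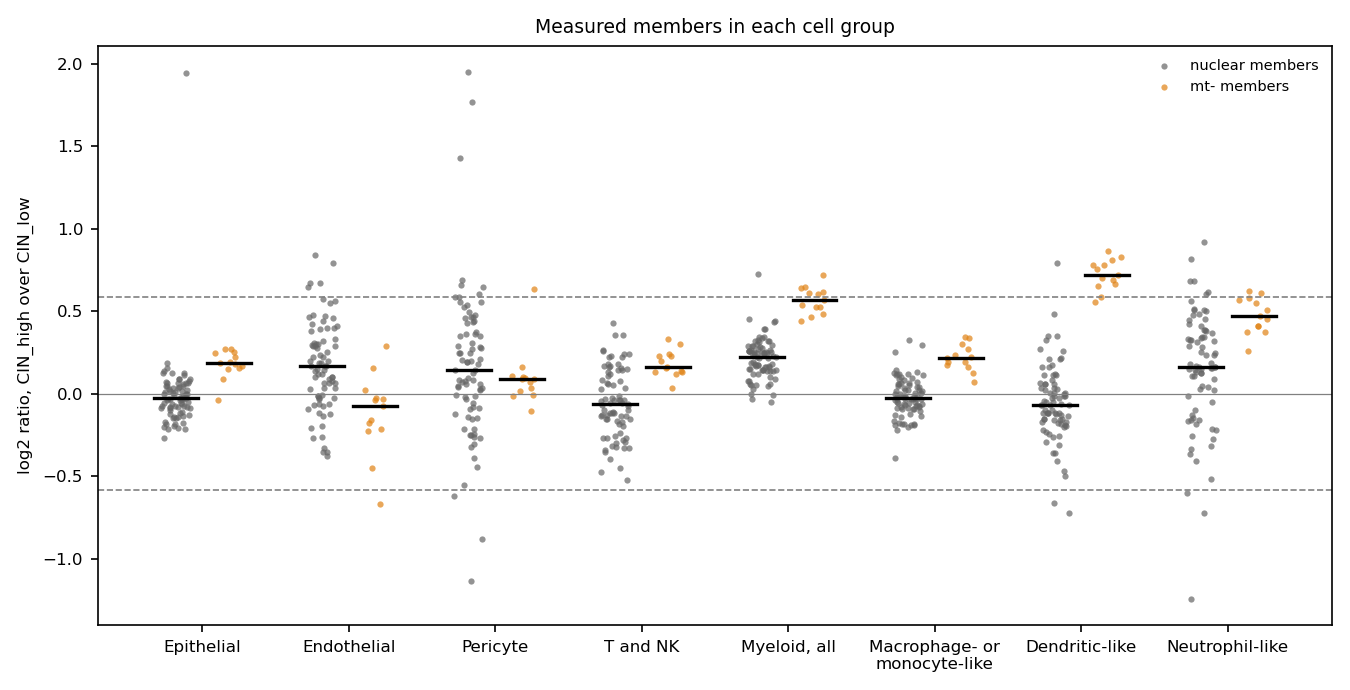
Log2 ratio of CIN_high over CIN_low of each measured member, nuclear in grey and mt- in orange, in 8 groups of cells; black lines are medians and dashed lines mark 1.5-fold. Nuclear medians stand at -0.03 in epithelium and 0.22 in all myeloid cells, and mt- medians at 0.19 and 0.57 in the same groups, at 0.72 in dendritic-like and at -0.08 in endothelial cells.

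Among the 5 annotated types compared, myeloid cells had the largest mt- median between the libraries by means over cells; by summed UMIs it was 0.47, against 0.46 in pericytes. All 13 had ratios above 1 and 6 were higher, among 7.83% of all measured genes, with a median log2 ratio of 0.57. mt-Nd4l was at 8.87 in CIN_high and 5.38 in CIN_low myeloid cells, mt-Cytb at 48.6 and 31.1, mt-Nd5 at 13.8 and 8.85, and mt-Nd3, mt-Atp8 and mt-Nd2 at ratios of 1.54, 1.53 and 1.52. Nuclear members were shifted with all genes: the median was 0.22 for both, 75 of 79 had ratios above 1, Cox6b2 alone was higher (80 and 111 UMIs) and 0 were lower (3.3% of all genes). Neutrophil-like cells, with the lowest shares of both groups, made up more of the CIN_low than of the CIN_high myeloid cells. Within macrophage- or monocyte-like cells the nuclear median was -0.03 and the mt- median 0.22, with 13 of 13 mt- ratios above 1, and 0 members were higher (2.52% of all genes) or lower (2.86%). The mt- median was smaller in this group than over all myeloid cells. As given below, it was larger in dendritic-like cells and lay between in neutrophil-like cells. The part of the mix of myeloid cells in the difference was not tested.

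Dendritic-like cells had 11 of 13 mt- members higher (14.8% of all genes) and a median of 0.72. Cells with over 20% of UMIs from mt- genes were 5.85% of the CIN_high and 0.678% of the CIN_low dendritic-like cells. Without them 6 members were higher and the median was 0.52, and by summed UMIs of all cells 7 were higher and the median was 0.60. The median mt- share per cell was 4.54% and 3.25%. There mt-Nd3 was at 8.23 in CIN_high and 4.53 in CIN_low cells, mt-Cytb at 52.5 and 29.9 and mt-Atp6 at 120 and 73.0, while nuclear members had a median of -0.07. Of nuclear members 1 was higher, Ndufa5 at 0.749 and 0.433, and 2 were lower (14.5%), Sdhd, a membrane anchor of complex II, at 0.501 and 0.795 and Cox7a1 on 4 and 8 UMIs. In neutrophil-like cells 2 mt- members, mt-Nd4l and mt-Nd3, were higher and the median was 0.47. Of 77 nuclear members 6 were higher there (26.8% of all genes) and 3 lower (9.95%). Ndufa8 was at 0.782 and 0.414 (144 and 332 UMIs), Sdha at 0.268 and 0.153, and Ndufa12, on the lower side, at 0.105 and 0.249 (17 and 162 UMIs). The others, Ndufb9, Ndufs5, Ndufb8 and Ndufs7 higher and Ndufv1 and Ndufc1 lower, lay between 1.52-fold and 1.65-fold. mt-Co1 made up 27.7% and 28.6% of the mt- UMIs of neutrophil-like cells, the highest share among the groups, against 14.9% and 14.9% in pericytes and 19.1% and 18.9% in epithelium.

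In endothelial cells most nuclear members had ratios above 1, and the direction of the mt- members depended on how cells were averaged. Of 78 nuclear members 5 were higher (12.8% of all genes) and 0 lower (19.6%), with 56 ratios above 1 and a median of 0.17 where all genes had -0.06. Ndufb10, a complex I subunit, was at 1.08 and 0.604 (294 and 115 UMIs; interval 1.14 to 1.77) and Ndufs6 at 0.787 and 0.504 (1.16 to 1.98). Sdhd, Ndufc1 and Sdhb had ratios of 1.73, 1.59 and 1.59 with intervals that included 1, and by summed UMIs 2 members passed. Ribosomal protein genes moved in the same direction in these cells, with 84 of 86 ratios above 1 and a median of 0.44, and their part in the result was not tested. Among mt- members the median was -0.08. mt-Nd6 was lower, at 2.44 and 3.88 (603 and 453 UMIs; interval 0.651 to 0.834), mt-Nd1 was at 29.1 and 39.8, and mt-Nd5 at 17.3 and 14.2. By summed UMIs no mt- member passed the line, and the median turned to 0.0029.

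T and NK cells had no member past the line in 78 nuclear (13.4% of all genes higher, 16.8% lower) and 13 mt- genes. Nuclear medians and mt- medians were -0.06 and 0.16, and all 13 mt- ratios lay above 1. The nuclear extremes were Ndufs3, a subunit of the matrix arm of complex I, at a ratio of 1.34, Atp5g2 and Sdhd at 1.28, and Ndufb2, Ndufa3 and Uqcrc2 at 0.697, 0.720 and 0.731.

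Among the annotated types, pericytes had wide differences in complex IV paralogs. Of 82 nuclear members 7 were higher in the CIN_high library (25.8% of all genes) and 3 lower (23.3%), so the counts lay below the share of all genes. Ndufa4l2 was at 2.41 in CIN_high and 5.30 in CIN_low pericytes (148 and 337 UMIs; interval of the ratio 0.405 to 0.602), with a UMI in 33 of 83 cells (39.8%) and 43 of 58 cells (74.1%). Cox4i2 was at 1.48 and 2.72 (70 and 160 UMIs; 0.367 to 0.657), in 32.5% and 70.7% of cells. Their widely used paralogs had ratios above 1: Ndufa4 was higher, at 2.90 and 0.851 (159 and 50 UMIs; 2.59 to 5.03), and Cox4i1 was at 7.70 and 5.70, inside the line, with an interval of 0.917 to 1.22. Other members past the line included Uqcrc2, a core protein of complex III, 1.53-fold lower, and Cox6b2, Ndufa10, Sdhd, Cox7c and, on 6 and 2 UMIs, Cox7a1 on the higher side. Of the 13 mt- members mt-Atp8 alone was higher, at 3.05 in CIN_high and 1.97 in CIN_low pericytes (165 and 99 UMIs), and the mt- median was 0.09, or 0.46 by summed UMIs. The nuclear median was 0.15, or -0.039 by summed UMIs. Cells had a median of 5345 and 8835.5 UMIs, and 83 and 58 cells limit the precision.

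The 2 paralogs were found in the same pericytes. Both had UMIs in 26 CIN_high and 36 CIN_low cells, Ndufa4l2 alone in 7 and 7, Cox4i2 alone in 1 and 5, and neither in 49 and 10. The annotated pericytes of the libraries differed in their markers: Rgs5, a pericyte gene, was at 55.9 and 116, Pdgfrb, the receptor pericytes are known for, at 5.00 and 10.0, while the contractile genes Acta2 and Myh11 of smooth muscle were at 43.0 and 17.8 and at 25.7 and 6.07. Of 9 pericyte markers measured, 5 were lower and 2 higher in the CIN_high library. Myh11 was at 5.84 and 5.82 in cells with Ndufa4l2, against 38.8 and 6.78 in cells without it, and Kcnj8, a potassium channel gene of pericytes, at 3.04 and 2.98, against 0.801 and 0.649. In pericytes with at least 20 UMIs per 10000 of Rgs5 and at most 20 of Myh11, chosen after the values were seen (35 and 51 cells), Ndufa4l2 was at 5.09 and 5.79, Cox4i2 at 3.23 and 3.04 and Ndufa4 at 1.07 and 0.834. In the other 48 CIN_high pericytes Ndufa4l2 was at 0.456, Cox4i2 at 0.198, Ndufa4 at 4.23 and Myh11 at 42.5. In the 35 and 51 chosen cells these 3 genes differed less between the libraries. The choice uses Myh11, which was low in CIN_high cells with Ndufa4l2, so it favours such cells and cannot say what sets the difference. This was not tested.

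In most cell types, cells with a larger mt- share had a smaller nuclear share of the remaining RNA. In epithelial cells the Spearman correlation between the mt- share and the nuclear share of non-mitochondrial UMIs was -0.33 over 1313 CIN_high cells and -0.34 over 1723 CIN_low cells, each thinned to 1000 UMIs. It was -0.42 and -0.41 in macrophage- or monocyte-like cells, -0.59 and -0.50 in T and NK cells, -0.32 and -0.40 in endothelial cells, -0.07 and -0.11 in enterocytes and 0.02 and 0.09 in neutrophil-like cells. Over all myeloid cells the sign was positive, 0.10 and 0.41; that type holds groups of cells with low and with high values of both. These cells share a library and a total, and depth moved with the nuclear share in epithelium (0.46 and 0.50), so the values are descriptions. In steps of the mt- share, the nuclear median in epithelium was 2.77% and 2.71% of non-mitochondrial UMIs between 5% and 10%, and 1.56% and 1.37% between 20% and 25%. Ribosomal protein genes took 10.3% and 7.75% of non-mitochondrial UMIs in the upper step, against 19.2% and 17.1% in the lower, and the median depth was 8813 and 7927 UMIs in the upper step, against 19162 and 20478. In T and NK cells the nuclear median was 1.85% and 1.88% below 5% mt- and 0.716% and 0.699% between 10% and 15%.

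**Figure D5:**
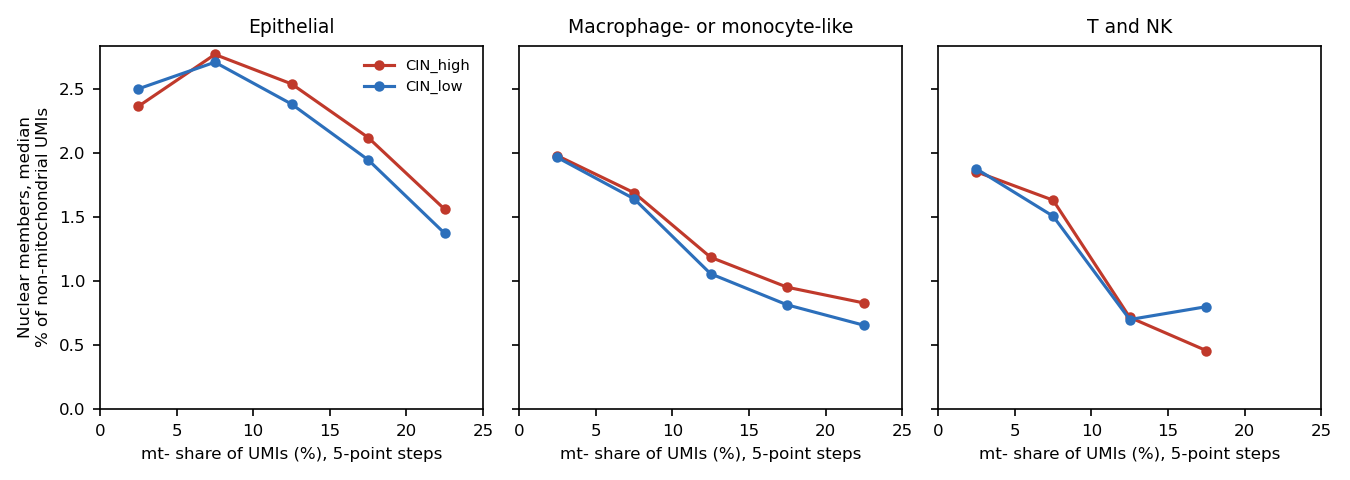
Median share of nuclear members among non-mitochondrial UMIs, in percent, by the cell's mt- share in steps of 5 points, in CIN_high (red) and CIN_low (blue); steps with under 20 cells are not drawn and points stand at the middle of a step. In epithelium the curves peak between 5% and 10%, at 2.77% and 2.71%, and end at 1.56% and 1.37%.

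Genes around the pathway were compared in the same way. In CIN_high over CIN_low epithelium, 51 measured assembly factors, which build the complexes, had 0 members past 1.5-fold and a median log2 ratio of -0.04. Genes of cytochrome c and of ATP and ADP exchange had 0 of 10 past the line and 10 of 10 ratios below 1 (-0.14). Of 29 genes that copy, transcribe and translate mitochondrial DNA, 1 was higher, Polg2, the accessory subunit of the mitochondrial DNA polymerase, at 0.165 and 0.0819 UMIs per 10000 (300 and 259 UMIs; interval 1.45 to 2.04), and 22 had ratios below 1 (-0.17). Of 11 biogenesis regulators, Tfeb, a transcription factor of lysosome genes, was lower at 0.0802 and 0.131 (-0.19). Of 24 citric acid cycle genes, Pdk4, a kinase that switches off pyruvate dehydrogenase, was lower at 0.0180 and 0.0736 (21 and 146 UMIs), and 22 ratios lay below 1 (-0.16). Of 19 glycolysis genes none passed the line (0.08), and of 19 hypoxia targets Car9, a carbonic anhydrase, was higher at 0.183 and 0.101, and Egln3, a prolyl hydroxylase, at 0.466 and 0.310 (0.12). Dissociation stress genes had a median of -0.21, with Hspa1a and Hspa1b 1.73-fold and 1.70-fold lower. All measured genes had a median of -0.10 in these cells, with 4.16% of them higher and 7.7% lower.

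In myeloid cells glycolysis genes moved against the shift of all genes, with a median of -0.31 and 16 of 18 ratios below 1. Hk1, a hexokinase, was lower at 0.305 and 0.555, and Ldhb, a lactate dehydrogenase subunit, higher at 0.212 and 0.118. In macrophage- or monocyte-like cells the glycolysis median was -0.25, with 17 of 18 ratios below 1 and none past 1.5-fold, where all genes had -0.01. In endothelial cells the glycolysis median was -0.22, with Pkm, a pyruvate kinase, at 2.85 and 4.50. In enterocytes the hypoxia targets had a median of 0.44, beside the nuclear median of -0.26. Of these 19 targets 6 were higher and 1 lower, where 17.4% and 22.9% of all genes were. In pericytes, where Cox4i2 and Ndufa4l2 were lower, 6 of 19 other hypoxia targets were higher and 2 lower (median 0.32), where 25.8% and 23.3% of all genes were.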

How the data were processed

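Single cells of distal colon adenoma, dissociated with collagenase A and trypsin per the labels' protocols, were profiled on the 10x Genomics platform. The submitters' processing notes name Cell Ranger 2.1.1, Seurat and the build mm10; how cells were filtered before deposit is not given in the sources used here. The authors deposited natural log values, ln of 1 plus UMIs per 10000 UMIs of a cell, and a table of cell types, subtypes and classes. The linear values summed to 10000 in every cell, and all of the 34170704 non-zero values became whole UMIs within a tolerance of 0.01. The design had assumed UMI counts, and the recovered UMIs were used in their place.

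Levels are UMIs per 10000 averaged over cells. A member was measured where 2% of the cells of 1 side had a UMI, with at least 50 cells per library; a side without UMIs was set to 3 UMIs. Named were the members past 1.5-fold, or else the 3 nuclear and 2 mt- members with the widest ratios each way, the paralog groups and all mt- genes; other lists name at most 4. Intervals are exact 95% binomial intervals on summed UMIs. Barcodes were checked for doublets with Scrublet in Scanpy 1.11.5 (expected rate 6%) and doublets were kept. Myeloid cells were clustered on 2000 variable genes, 30 components and 20 neighbours (Leiden resolution 0.5), named by at least 3 markers. Python 3.11.15, numpy 2.4.6, pandas 2.3.3, SciPy 1.17.1 and matplotlib 3.10.9 were used. Ratios were tested on simulated data. The members and lists were chosen with earlier results of these data known. Promoter windows were not used for 17 nuclear members. Single values of 1 member and of 1 marker are not reported here.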

Additional observations from a re-analysis of the deposited data

How the results depend on the processing

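No paired analysis was possible because each class had 1 library and the libraries share no replicate number. Of the main counts and medians recomputed for the comparisons between the libraries, 183 kept their direction and size, 41 moved and 2 reversed. Of the other values recomputed, 13 kept theirs, 8 moved and 3 reversed. After thinning to 1000 UMIs, Cox6b2 in epithelium fell under the 2% limit for being measured and so left the count below. Nuclear members past 1.5-fold numbered 1 in epithelium, 0 after thinning to 1000 UMIs and 5 with no filter; 5 in endothelial cells, 2 by summed UMIs, 14 after thinning, 8 without doublets and 10 with no filter; 1 in myeloid cells, 0 by summed UMIs, after thinning or with a 10% filter, 4 with no filter, 9 in neutrophil-like and 0 in macrophage- or monocyte-like clusters alone; 10 in pericytes and 30 after thinning; and 0 in T and NK cells, 11 after thinning and 2 with no filter. The mt- members past it numbered 1 in endothelial cells and 0 by summed UMIs; 6 in myeloid cells, 1 by summed UMIs, 3 without cells over 20% mt-, 2 in neutrophil-like and 0 in macrophage- or monocyte-like clusters; and 1 in pericytes, 2 by summed UMIs and 0 without cells over 20% mt-. The mt- median (log2) was 0.19 in epithelium, 0.24 by summed UMIs, 0.20 without ribosomal protein genes in the total, 0.11 without cells over 20% mt-, 0.20 without cells under 5000 UMIs and 0.20 after thinning to 5000. In endothelial cells it was -0.08, turned to 0.0029 by summed UMIs, and was -0.026 without ribosomal protein genes, -0.12 after thinning and -0.14 without cells over 20% mt-. In myeloid cells it was 0.57, and 0.47 by summed UMIs, 0.51 without cells over 20% mt-, 0.47 in neutrophil-like and 0.22 in macrophage- or monocyte-like clusters and 0.53 without clusters of other types. In pericytes it was 0.09 and 0.46 by summed UMIs, and in T and NK cells 0.16 and 0.24. In dendritic-like cells it was 0.72 with 11 members higher, 0.60 with 7 by summed UMIs and 0.52 with 6 without cells over 20% mt-. The nuclear median of myeloid cells, 0.22, turned to -0.025 in macrophage- or monocyte-like clusters alone. By pooled UMIs the ratio of mt- shares in endothelial cells turned to 1.01 and that of nuclear shares in pericytes to 0.974. The log2 ratio of Cox4i2 in pericytes was -0.88, -2.27 after thinning, and turned to 0.085 in Rgs5-rich cells low in Myh11. The causes were not tested. The settings on Rgs5 and Myh11, cells under 5000 UMIs, thinning to 5000, clusters of other types and dendritic-like cells were chosen after seeing the data. Cells of under 5000 UMIs limit the low members, of which Cox8b had 34 UMIs in all.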
